A study of Mus musculus with 12 samples.

Results

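The 10 genes described here encode histone deacetylases, the zinc-dependent enzymes that take acetyl groups off lysines of histones and other proteins. They were chosen by symbol, as Hdac1 to Hdac9 and Hdac11 in a table of read counts for 24495 mouse genes. All 10 were among the 15532 genes with enough counts to be tested. RNA-seq was made from mouse embryonic stem cells (mESCs) of the CCE-Nanog-GFP line, sorted for GFP, as undifferentiated cells grown with LIF (Day 0) and as embryoid bodies (EBs) kept without LIF and with 10 µM all-trans retinoic acid for 2 and 4 days (Day 2, Day 4). The control line, shSC, carried a scrambled shRNA, and the shCTSL line carried an shRNA against Ctsl, the gene of the protease cathepsin L. Both were made with lentivirus in the same parental cells and selected with puromycin. Each of the 6 groups had 2 biological replicates. An edgeR p-value here rests on the spread between the 2 libraries of a group, shared over all 6 groups. The labels do not say whether replicates came from separate cultures. The labels give 1 knockdown line without the number of its shRNA. Control libraries carry both WT and scr in their labels.

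Histone deacetylases are grouped by sequence. Class I (Hdac1, Hdac2, Hdac3 and Hdac8) is mostly nuclear, and Hdac1, Hdac2 and Hdac3 act as the catalytic subunits of large corepressor complexes: NuRD, SIN3, CoREST and MiDAC for Hdac1 and Hdac2, and NCoR and SMRT for Hdac3. Class IIa (Hdac4, Hdac5, Hdac7 and Hdac9) has little catalytic activity of its own, moves between nucleus and cytoplasm under the control of kinases, and holds transcription factors of the MEF2 family in a repressed state. Class IIb is represented by Hdac6, a largely cytoplasmic deacetylase of tubulin, and class IV by Hdac11, which also removes fatty acyl groups. In mESCs, deacetylase complexes take part both in keeping the pluripotent state and in leaving it. The data answer which of these genes changed as mESCs became EBs, and whether the shCTSL line differed.

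The libraries held 11171111 to 27155553 counted reads. Levels below are normalized CPM, counts scaled by library total and TMM factor to 1000000, in the order replicate 1, replicate 2. Differences are log2 fold changes from the quasi-likelihood model of edgeR, with their standard error (SE). A gene was called changed at a Benjamini-Hochberg adjusted p under 0.05, over all genes tested, with at least a 1.5-fold change. In the shCTSL line Ctsl itself was at 39.2 and 37.5 CPM at Day 0, against 137 and 147 CPM in shSC, and was lower in every shCTSL library on each day (log2 −1.89, −1.06 and −0.83, edgeR adjusted p = 0.00246, 0.0342 and 0.0896). Pluripotency markers fell over the labelled days: 7 summed to 5295 to 5812 CPM at Day 0, 733 to 858 CPM at Day 2 and 259 to 337 CPM at Day 4. Endoderm markers, 5 genes, summed to 8.77 to 10.8, 191 to 233 and 354 to 402 CPM on these days, and 5 fibroblast markers to 8.32 to 11.7, 39.8 to 57.3 and 98.5 to 129 CPM. Of the fibroblast markers, 1 was called lower at Day 4 against Day 0 in each line. The sum of 5 neural markers went the other way, from 214 to 245 CPM at Day 0 to 129 to 170 at Day 4. It mixes directions: 3 of these genes were called higher and 1 lower at Day 4 against Day 0 in shSC. In shCTSL 4 were called higher and 1 lower. The part of such cells in the changes between days was not tested. As these are bulk samples, a fall in a transcript cannot be told apart from a loss of the cells that made it. The 2 shCTSL Day 2 libraries stood apart: the SD of the log2 ratio between them was 0.604, against 0.178 to 0.269 in the other groups, and ribosomal Rn45s took 3.43% of the counts of replicate 1, against 0.170 to 1.43% in the other libraries. The spread of this pair enters the edgeR p-values of every comparison.

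Before the values, a few sequences show what could be counted and what lies at the start sites of 3 of the class IIa genes. All but 1 of the members could be counted over nearly their whole exonic sequence. None of the 50-base exonic windows of Hdac2, Hdac3, Hdac4, Hdac5, Hdac7, Hdac8, Hdac9 or Hdac11 occurred elsewhere in the mm9 genome, and in Hdac6 only 0.0870% did. In Hdac1 37.3% of 2857 windows did, and 918 of them lay in a single processed copy, Gm10093, at chr17:78890905-78892881 (mm9, plus strand). Of the 14 coding segments of Hdac1, 10 were found whole and unaltered in that copy. The longest is shown because a read from it fits both places; it lies at chr4:129194600-129194752 (mm9, minus strand) and again at chr17:78892141-78892293 (plus strand), and since every base is shared none is in capitals.
Hdac1 coding segment: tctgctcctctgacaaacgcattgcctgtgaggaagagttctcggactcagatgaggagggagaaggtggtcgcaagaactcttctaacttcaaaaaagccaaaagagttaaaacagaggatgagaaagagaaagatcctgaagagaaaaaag
The authors discarded alignments of mapping quality under 10, so the Hdac1 counts come from part of the transcript and its level is a minimum; the comparison between days uses the same remaining part in each library.

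RefSeq promoter windows (GRCm38.p6, 250 bases before to 50 after the start) were at hand for 8 of the 10 members, all but Hdac1 and Hdac3, in 12 windows. Those of Hdac4, Hdac5 and Hdac9 are shown because these 3 genes of 1 class moved in opposite ways or by very different amounts. Each is written 5′ to 3′ on the gene's strand, which is the minus strand for all. Capitals mark 5 motifs searched on both strands: the GC box GGGCGG, the MEF2 core CTATTTTTA, the E box CACGTG, the nuclear receptor half-site AGGTCA and the TATA box TATAAA. The motifs were picked after the windows had been seen, and no marked motifs overlap.
Hdac4 chr1:92180292-92180591: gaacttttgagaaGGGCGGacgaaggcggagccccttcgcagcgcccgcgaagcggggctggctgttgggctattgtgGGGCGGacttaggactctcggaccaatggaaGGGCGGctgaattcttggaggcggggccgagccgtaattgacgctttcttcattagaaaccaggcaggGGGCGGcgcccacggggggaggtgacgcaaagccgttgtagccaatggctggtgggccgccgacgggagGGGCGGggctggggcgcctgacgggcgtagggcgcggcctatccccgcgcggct
Hdac5 chr11:102230123-102230422: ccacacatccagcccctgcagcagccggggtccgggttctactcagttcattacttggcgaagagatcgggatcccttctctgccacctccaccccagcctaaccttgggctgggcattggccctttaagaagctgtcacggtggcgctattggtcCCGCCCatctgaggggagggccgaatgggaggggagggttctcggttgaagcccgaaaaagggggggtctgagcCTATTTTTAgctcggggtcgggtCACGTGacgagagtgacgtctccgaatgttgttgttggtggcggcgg
Hdac9 chr12:34917046-34917345: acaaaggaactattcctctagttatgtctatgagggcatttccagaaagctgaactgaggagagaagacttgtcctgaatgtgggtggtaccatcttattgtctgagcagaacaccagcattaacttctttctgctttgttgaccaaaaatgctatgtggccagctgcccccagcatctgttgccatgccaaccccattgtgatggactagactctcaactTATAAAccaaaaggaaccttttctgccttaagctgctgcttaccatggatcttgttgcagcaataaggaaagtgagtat
Hdac9 chr12:34528840-34529139: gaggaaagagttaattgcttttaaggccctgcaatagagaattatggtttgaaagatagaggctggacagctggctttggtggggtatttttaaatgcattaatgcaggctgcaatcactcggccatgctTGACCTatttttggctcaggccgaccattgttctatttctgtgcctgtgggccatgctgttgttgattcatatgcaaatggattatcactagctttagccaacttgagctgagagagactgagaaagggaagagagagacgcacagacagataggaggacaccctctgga
The Hdac4 window is 68.0% G and C, with 32 CpG and 5 GC boxes, a number also found in the window of Hdac6, which was not called in any comparison. The Hdac5 window holds 1 MEF2 core, 1 E box and 1 GC box. The 2 start sites of Hdac9 stand in windows of 44.0% and 45.3% G and C with 0 and 3 CpG and no GC box. One holds a TATA box and the other a nuclear receptor half-site. Of 32851 promoter windows of the same length, 35.7% hold a GC box, 0.493% the MEF2 core, 7.15% the E box, 16.3% the half-site and 13.6% the TATA box. Among the 12 windows used, the MEF2 core was found only in that of Hdac5. Of the 4 windows of Hdac7, not printed, 1 holds a GC box, 1 a half-site and 2 none of the motifs. These matches describe letters, and no binding was measured.

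In both lines the class IIa genes went separate ways. Hdac5, Hdac7 and Hdac9 rose between Day 0 and Day 2 while Hdac4 fell. Hdac8 and Hdac11 rose too, Hdac1 fell by Day 4, Hdac2 was called lower at Day 2 in shCTSL, and Hdac3 and Hdac6 were not called in any comparison. From Day 0 to Day 2, 6 of the 10 were called in shSC, 5 higher and 1 lower, where 54.6% of all genes tested were called (29.3% higher, 25.3% lower). In shCTSL 7 were called, 5 higher and 2 lower, beside 55.5% of all genes (30.9% higher, 24.6% lower). From Day 0 to Day 4 it was 7 in each line, 5 higher and 2 lower, beside 60.7% of all genes in shSC (32.1% higher, 28.7% lower) and 59.9% in shCTSL (32.3% higher, 27.6% lower). From Day 2 to Day 4 only Hdac9 was called, in each line, beside 23.8% and 23.4% of all genes. Against Day 0 the total share of members called was near that of all genes, and the comparisons with Day 0 share the Day 0 libraries. The libraries of the days did not overlap for 10, 7 and 10 members in shSC (Day 2 against Day 0, Day 4 against Day 2, Day 4 against Day 0), beside 89.7%, 77.6% and 89.7% of all genes. In shCTSL it was 9, 7 and 10 members beside 75.8%, 54.7% and 88.2%, so a lack of overlap between days was common. The median log2 difference of the 10 members at Day 4 against Day 0 was 0.30 in shSC and 0.40 in shCTSL, and that of all genes 0.03 and 0.06. In each line 5 members had positive and 5 negative differences. The median of the members lies in the gap between these and shows no shift of the family.

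**Figure D1:**
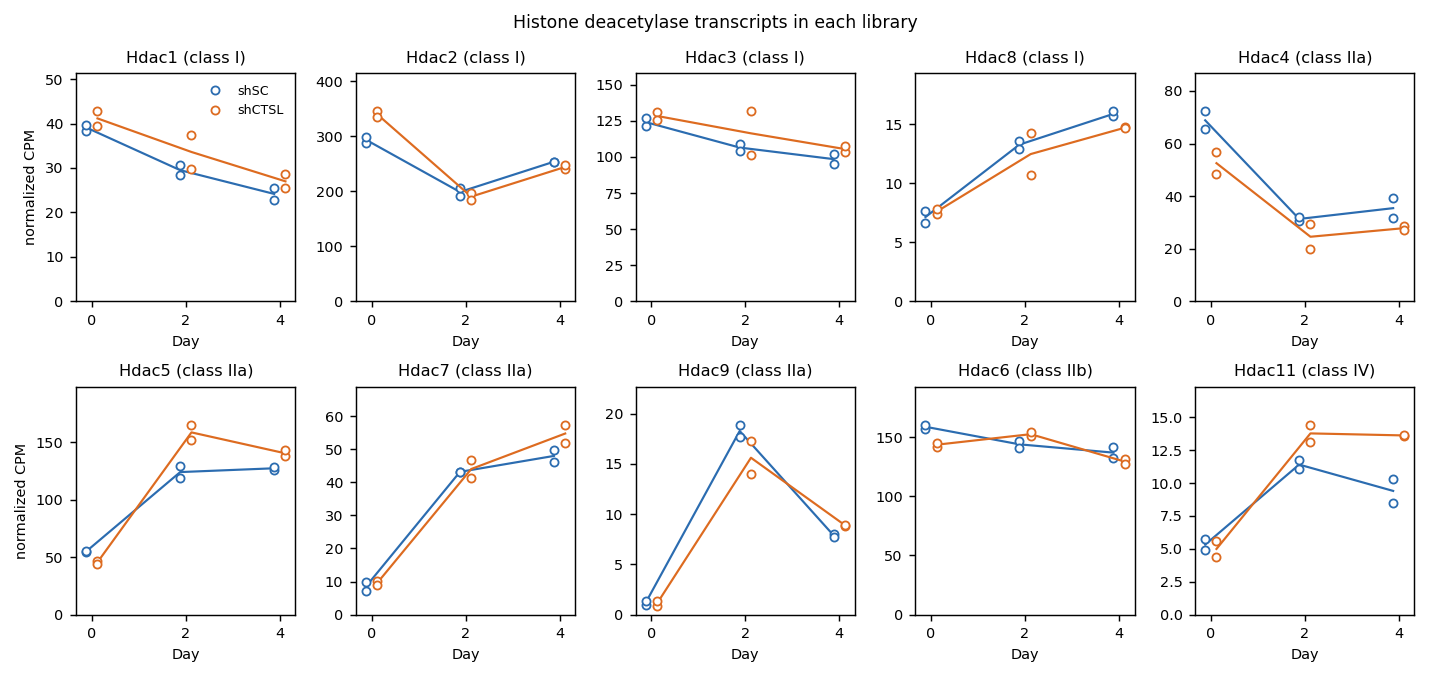
Normalized CPM (vertical axes, each from 0) of the 10 histone deacetylases by day of differentiation (horizontal axes); each circle is 1 library, blue for shSC and orange for shCTSL, and lines join the means of 2 libraries. Hdac5, Hdac7, Hdac8, Hdac9 and Hdac11 lie higher in every Day 2 and Day 4 library than in any Day 0 library, and Hdac4 lies lower.

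Hdac9, a class IIa corepressor known best from muscle and heart, had the largest change among the 10 in both lines. It was at 0.991 and 1.36 CPM in shSC at Day 0, 17.6 and 18.9 at Day 2 and 8.04 and 7.70 at Day 4. In shCTSL it was at 0.821 and 1.37 CPM, 14.0 and 17.2, and 8.82 and 8.95. Every Day 2 library lay above every Day 4 library, and these above every Day 0 library. The Day 0 values rest on 11 to 22 counts a library, so the folds from Day 0 are imprecise. The log2 change at Day 2 was 3.93 (SE 0.224, edgeR adjusted p = 3.26e-07) in shSC and 3.88 (SE 0.241, adjusted p = 5.69e-07) in shCTSL. The fall from Day 2 to Day 4 was 2.32-fold in shSC (log2 −1.21, SE 0.175, edgeR adjusted p = 0.000623) and 1.76-fold in shCTSL (log2 −0.81, SE 0.174, adjusted p = 0.00620). The shCTSL fall was no longer called without shCTSL Day 4 replicate 1 (adjusted p = 0.0522), with limma-voom (0.0995) or in a fit of only the groups compared (0.0931), and the difference between the falls was not called (log2 0.40, SE 0.246, edgeR adjusted p = 1.0).

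Hdac7, a class IIa member known from endothelial and lymphoid cells, was at 9.84 and 7.13 CPM in shSC at Day 0, 43.2 and 43.2 at Day 2 and 46.1 and 49.9 at Day 4. The shCTSL libraries read 10.1 and 9.06 CPM, 41.4 and 46.8, and 57.5 and 52.1. Most of the rise was complete by Day 2, and no EB library came near a Day 0 library. At Day 4 the change was 5.69-fold in shSC (log2 2.51, SE 0.161, edgeR adjusted p = 4.05e-07) and 5.71-fold in shCTSL (log2 2.51, SE 0.162, adjusted p = 4.40e-07). Markers of endothelium and mesoderm, 5 genes, summed to 86.5 to 88.0 CPM in shSC at Day 0, 133 to 143 at Day 2 and 217 to 225 at Day 4. In shCTSL they summed to 61.7 to 66.5 CPM at Day 0, 43.3 to 77.5 at Day 2 and 160 to 196 at Day 4. The sums mix directions. Of 4 markers tested, 2 were called higher and 1 lower at Day 2 against Day 0 in each line. Of all genes, 29.3% were called higher in shSC and 30.9% in shCTSL. The part of these marker cells in the Hdac7 values was not tested.

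Hdac5, a signal-dependent class IIa repressor of MEF2, was at 54.5 and 55.5 CPM in shSC at Day 0, 130 and 119 at Day 2 and 126 and 129 at Day 4. It was at 47.0 and 44.2 CPM, 166 and 152, and 138 and 143 in shCTSL. The Day 0 libraries of both lines lay far under all others. The Day 2 change was 2.26-fold in shSC (log2 1.17, SE 0.0992, edgeR adjusted p = 4.08e-06) and 3.48-fold in shCTSL (log2 1.80, SE 0.102, adjusted p = 3.19e-07). It held at Day 4, with log2 changes of 1.21 and 1.62 from Day 0.

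Hdac4, the class IIa member known for restraining MEF2 in bone and muscle, fell. It was at 72.3 and 65.4 CPM in shSC at Day 0, 30.5 and 32.1 at Day 2 and 39.2 and 31.6 at Day 4. In shCTSL the values were 48.3 and 56.8 CPM, 19.7 and 29.4, and 28.6 and 27. All EB libraries of a line lay under its Day 0 libraries, while Day 2 and Day 4 overlapped. The fall at Day 2 was 2.20-fold in shSC (log2 −1.14, SE 0.184, edgeR adjusted p = 0.000368) and 2.13-fold in shCTSL (log2 −1.09, SE 0.187, adjusted p = 0.000535). At Day 4 it was log2 −0.96 and −0.92 against Day 0.

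These moves changed which class IIa gene was the most abundant. Per kilobase of exon (GENCODE lengths), the ratio of Hdac5 to Hdac4 was 0.557 to 0.719 in the 4 Day 0 libraries, 2.73 to 6.21 at Day 2 and 2.38 to 3.92 at Day 4. Hdac4 made up 50.6 to 57.9% of the class IIa level at Day 0, and 13.5 to 20.4% at Day 4, when Hdac5 held 48.6 to 52.9% and Hdac7 28.2 to 33.1%. At these lengths Hdac4 was above Hdac5 in every Day 0 library and below it in every later one. The lengths join all GENCODE exons of a gene, while reads were counted per RefSeq gene. Other lengths would scale the ratio by the same factor in each library, and could move the order and the shares.

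**Figure D2:**
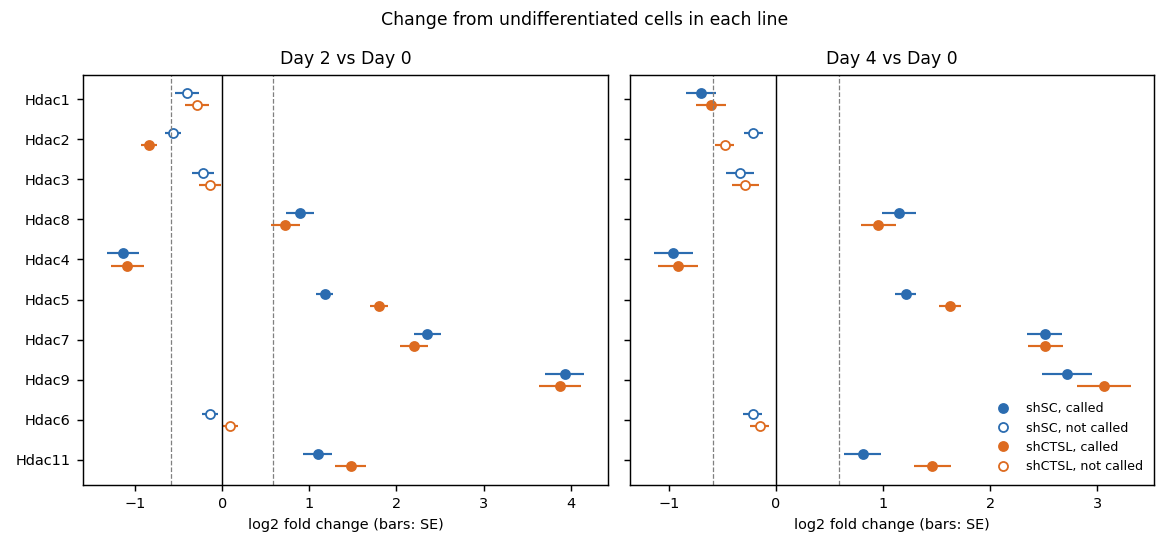
Log2 fold change from Day 0 (horizontal axes) of each member at Day 2 (left) and Day 4 (right), in shSC (blue) and shCTSL (orange); bars are the SE, filled points were called, and dashed lines mark 1.5-fold. Hdac9 (3.93 and 3.88 at Day 2) and Hdac7 lie farthest to the right and Hdac4 farthest to the left in both lines. At Day 4 Hdac9 lies nearer to 0 than at Day 2 (2.72 and 3.06).

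In class I, Hdac1 and Hdac2, the catalytic subunits of NuRD, SIN3 and CoREST, were lower in EBs than at Day 0, and Hdac8 was higher. For Hdac2 the difference of Day 4 from Day 0 was not called in either line. Hdac1 was at 38.4 and 39.8 CPM in shSC at Day 0, 28.4 and 30.6 at Day 2 and 22.7 and 25.6 at Day 4. In shCTSL it was at 39.5 and 42.8 CPM, 37.5 and 29.7, and 25.4 and 28.6. Each later day lay lower without overlap in both lines. The change to Day 4 was 1.62-fold lower in shSC (log2 −0.70, SE 0.140, edgeR adjusted p = 0.00127). In shCTSL it was 1.52-fold lower (log2 −0.61, SE 0.139, adjusted p = 0.00306), just past the fold threshold, and it was not called with RLE normalization, with DESeq2, in a fit of only the groups compared or without any 1 of 3 shCTSL libraries (Day 0 replicate 2, Day 2 replicate 1, Day 4 replicate 1; log2 −0.58 to −0.53).

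Hdac2, the paralog that forms the same complexes as Hdac1, was the most abundant member on every day. It was at 289 and 299 CPM in shSC at Day 0, 192 and 205 at Day 2 and 254 and 253 at Day 4. The shCTSL libraries read 345 and 334 CPM, 196 and 184, and 240 and 248. Day 2 was thus the lowest day, with Day 4 between it and Day 0. At Day 4 against Day 0 the change in shCTSL was log2 −0.48 (SE 0.0903, edgeR adjusted p = 0.000915), under 1.5-fold. In shSC it was smaller, at log2 −0.24 to −0.17 over the fits with 1 library left out. At Day 2 the fall was 1.79-fold in shCTSL (log2 −0.84, SE 0.0908, edgeR adjusted p = 2.28e-05) and called. In shSC it was 1.48-fold (log2 −0.56, SE 0.0904, adjusted p = 0.000349), under the fold threshold by little, and the difference between the lines was not called (log2 −0.27, SE 0.128, adjusted p = 0.461). The return from Day 2 to Day 4 had adjusted p of 0.0145 and 0.0136 at log2 0.35 and 0.36, under the 1.5-fold needed for a call.

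Hdac3, the enzyme of the NCoR and SMRT complexes, was at 121 and 127 CPM in shSC at Day 0, 109 and 104 at Day 2 and 95 and 102 at Day 4. In shCTSL it was at 131 and 126 CPM, 132 and 101, and 103 and 108. The largest difference was log2 −0.33 at Day 4 in shSC (SE 0.126, edgeR adjusted p = 0.0368), which is less than 1.5-fold. Hdac8, the class I member that works outside these complexes and deacetylates cohesin, rose instead. Its levels were 6.63 and 7.62 CPM in shSC at Day 0, 13.6 and 12.9 at Day 2 and 15.6 and 16.1 at Day 4. In shCTSL they were 7.39 and 7.79 CPM, 10.7 and 14.2, and 14.7 and 14.7. At Day 4 the change was 2.22-fold in shSC (log2 1.15, SE 0.161, edgeR adjusted p = 0.000111) and 1.94-fold in shCTSL (log2 0.95, SE 0.164, adjusted p = 0.000472). The Day 2 call in shCTSL (log2 0.72, edgeR adjusted p = 0.00312) was lost without shCTSL Day 2 replicate 2, at log2 0.50, and with limma-voom (adjusted p = 0.0543) or a fit of only the groups compared (adjusted p = 0.0692).

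Hdac6, the tubulin deacetylase of class IIb, was at 157 and 161 CPM in shSC at Day 0, 147 and 141 at Day 2 and 132 and 141 at Day 4. The shCTSL values were 142 and 145 CPM, 151 and 154, and 131 and 127. All 12 libraries stayed within 127 and 161 CPM. The largest difference between days was log2 −0.24 from Day 2 to Day 4 in shCTSL (SE 0.0892, edgeR adjusted p = 0.0700). Hdac11, the class IV member, rose from 4.88 and 5.76 CPM in shSC at Day 0 to 11.8 and 11.1 at Day 2 and stood at 8.48 and 10.3 at Day 4. In shCTSL it went from 4.40 and 5.58 CPM to 14.5 and 13.1, and then 13.6 and 13.7. The Day 4 change was 1.75-fold in shSC (log2 0.81, SE 0.173, edgeR adjusted p = 0.00188) and 2.75-fold in shCTSL (log2 1.46, SE 0.176, adjusted p = 3.86e-05).

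Levels of different genes can be compared only per length. The order below rests on joined GENCODE exons, which may differ from the RefSeq exons counted. In shSC at Day 0 the order in CPM per kilobase was Hdac2 (65.5 ± 1.58, SD, n = 2), Hdac3 (30.8 ± 1.0), Hdac6 (27.3 ± 0.458), Hdac1 (11.4 ± 0.277), Hdac4 (10.6 ± 0.754) and Hdac5 (6.27 ± 0.0807). Hdac7, Hdac8 and Hdac11 followed at 1.53, 1.47 and 1.38 CPM per kilobase and overlapped between neighbours. Hdac9 was last at 0.123. At Day 4 Hdac2 still led with 56.6 ± 0.0581 CPM per kilobase, and Hdac3 and Hdac6 overlapped at 24.5 and 23.5. Hdac5 (14.5) and Hdac7 (8.69) then stood above Hdac1 (7.01) and Hdac4 (5.46), and Hdac9 stayed last at 0.819. The rank of Hdac1 depends on its uncounted part. Its counts divided by the length of its unique windows, 2.16 kilobases, gave 10.5 to 19.8 CPM per kilobase across the 12 libraries. That was under Hdac3 in each. The division takes every counted read as lying in unique sequence, which was not checked. At Day 4 it gave 10.5 and 11.9 in shSC and 11.8 and 13.2 in shCTSL. These values lay above Hdac7 in all 4 libraries (8.34 and 9.03, 10.4 and 9.42), so the order of these genes depends on this assumption.

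Summed over the 10 genes, with Hdac1 counted over its full length, the family level per kilobase was 155 to 163 at Day 0, 138 to 150 at Day 2 and 145 to 150 at Day 4. Class I made up 69.3 to 75.3% of it at Day 0, 55.6 to 60.1% at Day 2 and 60.9 to 62.4% at Day 4. Class IIa went from 9.03 to 12.5% at Day 0 to 20.4 to 23.0% at Day 2 and 19.7 to 21.4% at Day 4. Class IV went from 0.702 to 0.946% at Day 0 to 1.52 to 2.40% at Day 4, and Hdac6 held 14.6 to 19% throughout. For class I, IIa and IV every EB library lay on one side of every Day 0 library. These shares rest on the same GENCODE lengths.

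**Figure D3:**
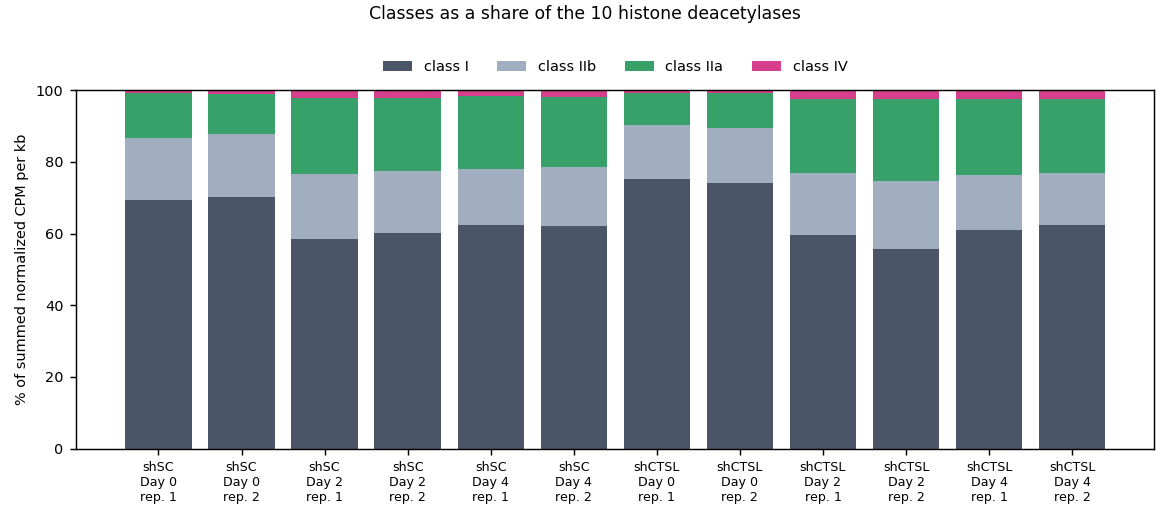
Share of each class in the summed normalized CPM per kilobase of the 10 histone deacetylases (vertical axis, percent), 1 bar per library. Class I falls from 69.3 to 75.3% at Day 0 to 60.9 to 62.4% at Day 4, and class IIa rises from 9.03 to 12.5% to 19.7 to 21.4%.

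Between the lines no member was called on any day. The share of all genes called for shCTSL against shSC was 0.0386% at Day 0, 0.0644% at Day 2 and 0.0129% at Day 4, 6, 10 and 2 genes. With unadjusted p under 0.05 there were 2, 1 and 1 members, beside 1127, 3014 and 1897 of the 15532 genes. The number of genes called depended strongly on the fit, at 48, 120 and 123 with DESeq2 and 254, 0 and 723 with limma-voom, and neither called a member. Without shCTSL Day 2 replicate 2 it was 214, 5012 and 924 genes, and without shCTSL Day 2 replicate 1 it was 211, 96 and 926. The mean over the 3 days gave 0 members called, beside 0.270% of all genes. Nor were members called for a difference between the lines in the change between days, beside 0.0%, 0.0% and 0.00644% of all genes. At an unadjusted p under 0.05 in edgeR there were 1, 0 and 2 members, beside 1716, 753 and 1042 of the 15532 genes. A p that misses the threshold does not show that the lines were alike, and some intervals are wide.

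Hdac4 was lower in both shCTSL libraries than in both shSC libraries on all 3 days, which held for 714 of the 15532 genes (4.60%). No member was higher in this way, as 2.61% of all genes were. The log2 difference was −0.39 (SE 0.183) at Day 0, −0.35 (SE 0.184) at Day 2 and −0.35 (SE 0.185) at Day 4. The mean over the days was −0.36 (SE 0.106, 95% interval −0.60 to −0.13), with an unadjusted p of 0.00667 in edgeR and an adjusted p of 0.152. Without shCTSL Day 2 replicate 2 the Day 2 difference became −0.67 with an adjusted p of 0.000849, and without shCTSL Day 2 replicate 1 it was −0.082 with an adjusted p of 0.791, so the Day 2 value rests on which of 2 unlike libraries is kept.

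Hdac5 was lower in shCTSL at Day 0 (log2 −0.27, SE 0.10, edgeR adjusted p = 0.583) and higher at Day 2 (log2 0.35, SE 0.0970, adjusted p = 0.222), with no overlap between the lines. At Day 4 the difference was 0.14 (SE 0.0971). The rise to Day 2 was larger in shCTSL by log2 0.62 (SE 0.139, 95% interval 0.31 to 0.93), with an unadjusted p of 0.00119 in edgeR and an adjusted p of 0.390. Without shCTSL Day 2 replicate 2 it was 0.68 and without replicate 1 it was 0.56, in fits that left 1 library in that group. For Hdac11 the lines were furthest apart at Day 4, at 8.48 and 10.3 CPM in shSC and 13.6 and 13.7 in shCTSL (log2 0.54, SE 0.160, 95% interval 0.18 to 0.90, edgeR adjusted p = 0.273). The gain from Day 0 to Day 4 was larger in shCTSL by 0.65 (SE 0.247, adjusted p = 0.704).

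The other members differed less. For Hdac1, Hdac2, Hdac3, Hdac6, Hdac7, Hdac8 and Hdac9 the log2 differences between the lines ran from −0.22 to 0.21 on the 3 days. The libraries of the lines did not overlap for 4 members at Day 0, 5 at Day 2 and 9 at Day 4, beside 51.3%, 45.5% and 61.5% of all genes.

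**Figure D4:**
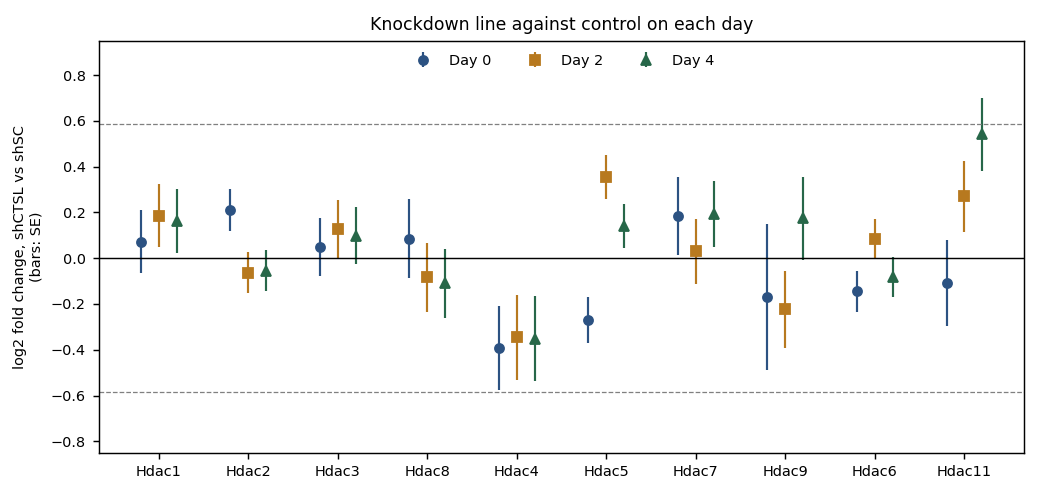
Log2 fold change of shCTSL against shSC (vertical axis) for each member at Day 0 (circles), Day 2 (squares) and Day 4 (triangles); bars are the SE and dashed lines mark 1.5-fold. Hdac4 lies below 0 on each day (−0.39, −0.35 and −0.35), no point reaches a dashed line, and Hdac11 at Day 4 (0.54) comes nearest.

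Genes that work with or against the deacetylases were taken from lists of complexes and enzymes. Of 46 tested partner subunits of NuRD, SIN3, CoREST, NCoR and SMRT, and MiDAC and MIER, 10 were called higher and 8 lower at Day 4 against Day 0 in shSC, and 10 and 9 in shCTSL, beside the 60.7% and 59.9% of all genes called in these comparisons. None of these 46, nor of the 71 over all lists, was called between the lines on any day. The genes named were called in both lines, with edgeR adjusted p of at most 0.00893. In NuRD 2 of 13 were higher and 2 lower in shSC, and 2 and 3 in shCTSL. Chd3, a remodelling ATPase of NuRD, rose by log2 4.58 in shSC and 4.17 in shCTSL, and Chd5, its relative, changed by −1.68 and −1.09. In SIN3 2 of 14 were higher and 5 lower in shSC, and 2 and 4 in shCTSL. Arid4b, a chromatin-binding subunit, changed by log2 0.97 and 1.03, and Sap30, an adaptor subunit, by −1.38 and −1.61.

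CoREST had 3 of 9 higher and 1 lower in each line. Its scaffold Rcor3 rose by log2 1.91 and 2.0, and the paralog Rcor2 changed by −1.39 and −1.38. In NCoR and SMRT 2 of 5 were higher in each line, with Gps2, a core subunit, at 0.66 and 0.92, and in shCTSL 1 was lower. The median log2 differences in shSC and shCTSL were −0.25 and −0.17 for NuRD, −0.15 and −0.13 for SIN3, 0.53 and 0.38 for CoREST and 0.21 and 0.01 for NCoR and SMRT, where all genes had 0.03 and 0.06. In MiDAC and MIER 1 of 5 was higher in each line, the corepressor Mier3, at 0.82 and 0.62, with list medians of 0.25 and 0.16. Of 6 tested partners of class IIa, 3 were higher and 0 lower in each line, with medians of 0.63 and 0.61, where 32.1% and 32.3% of all genes were called higher. Mef2c, a transcription factor that class IIa enzymes hold back, rose by log2 5.55 (SE 0.591) and 4.31 (SE 0.607), from a mean of 0.220 CPM at Day 0 to 6.76 CPM at Day 4, with few counts behind the first. Muscle markers, 5 genes, summed to 8.54 to 9.36 CPM at Day 0, 8.93 to 9.16 at Day 2 and 6.59 to 8.0 at Day 4 in shSC. In shCTSL they summed to 6.95 to 9.55, 12.6 to 16.4 and 14.5 to 18.0 CPM on these days. Of the 2 tested, 1 was called higher and 1 lower at Day 4 against Day 0 in each line. The part of muscle cells in these values was not tested.

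The NAD-dependent sirtuins, the other deacetylase family, had 2 of 7 higher and 2 lower in shSC, and 3 and 2 in shCTSL. Sirt2, a cytoplasmic tubulin deacetylase like Hdac6, rose by log2 0.92 and 0.97, and Sirt1, a nuclear deacetylase, changed by −1.58 and −1.92. The list medians were −0.18 and −0.19. Of 12 histone acetyltransferases, which place the marks that deacetylases remove, 0 were higher and 6 lower in each line, where 28.7% and 27.6% of all genes were called lower. Kat2b had the largest fall among those called in both lines, at log2 −1.68 and −1.69. The median over the 12 was −0.66 in shSC and −0.91 in shCTSL. Hdac10, the class IIb gene not among the 10, was at 14.3 and 11.4 CPM in shSC at Day 0 and 16.0 and 16.2 at Day 4. In shCTSL it was at 13.6 and 13.5 CPM and then 21.4 and 22.3 (log2 0.69, SE 0.145, edgeR adjusted p = 0.00173), and the difference between the lines in this change was not called (0.36, SE 0.204, adjusted p = 0.788).

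**Figure D5:**
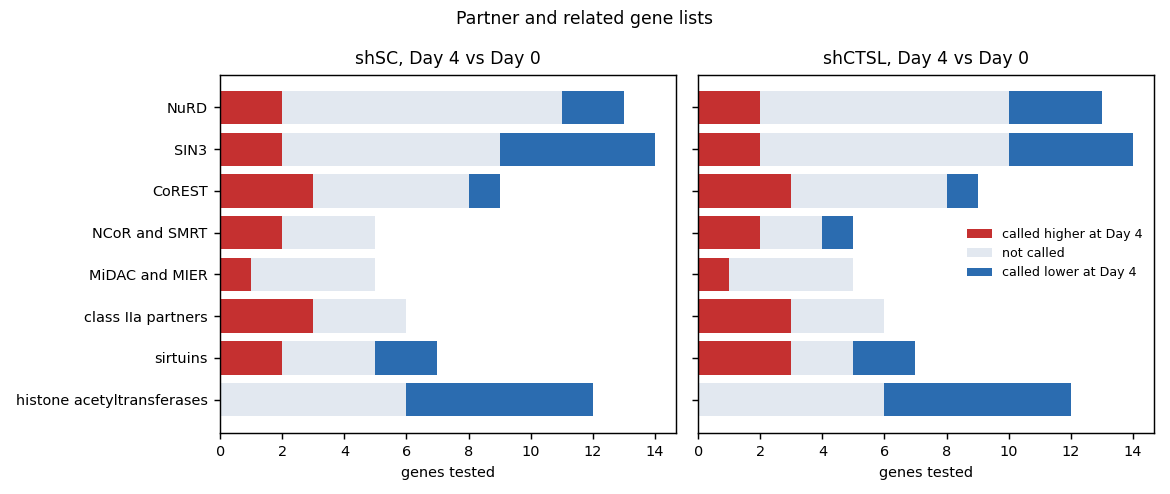
Number of genes (horizontal axes) in each list called higher, not called or called lower at Day 4 against Day 0 in shSC (left) and shCTSL (right). Acetyltransferases have 6 of 12 called lower and 0 higher in each line, while partners of class IIa have 3 of 6 called higher and 0 lower.

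The genes whose log2 CPM followed each member most closely over the 12 libraries were listed as a description, since all points share the days. Nearest to Hdac4 were Chd8 (Pearson r = 0.992, n = 12), Tpr and Ubr4. Nearest to Hdac5 were Tmem132a (r = 0.996), Dact2 and Ctsf, and nearest to Hdac7 were Crtc3 (r = 0.996), Fam114a1 and Gypc. Hdac9 was followed most closely by Frzb (r = 0.993), Arg1 and Cnr1. Hdac1 had Gnb1l (r = 0.985), Cdk5rap3 and Adrb3, Hdac2 had Arpp19 (r = 0.986), Akirin1 and Map9, and Hdac3 had Psma1 (r = 0.991), Mrpl17 and Mrpl51. Hdac8 had Fam214a (r = 0.994), Smarcc2 and Uggt2, and Hdac11 had Taz (r = 0.977), Irak2 and Inha. Hdac6, which varied least, had the lowest leading value, with Eef2 (r = 0.933), Acly and Chd5.

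On the mm9 genome the members lie apart from each other. Hdac1 is at chr4:129193348-129219957, Hdac2 at chr10:36694350-36721695, Hdac8 at chrX:99479978-99700698 and Hdac6 at chrX:7507246-7525015. Hdac5 is at chr11:102055746-102091480, Hdac7 at chr15:97623095-97674933, Hdac9 at chr12:34732451-35213754 and Hdac11 at chr6:91106659-91124686. Hdac4 is at chr1:93829334-94044970, where GENCODE has 2 records under its name, and Hdac3 is on chromosome 18. Genes on the opposite strand share 29 exonic bases with Hdac7 (Slc48a1), 96 with Hdac11 (Gm14573) and 132 with Hdac4 (Gm17418). The strand setting of the counting was not given in the sources used here, so reads of these stretches could belong to either gene.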

How the data were processed

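RNA was poly(A) selected and made into directional libraries. Per the labels and the study's methods, the authors placed reads on mm9 by STAR 2.3.0e, used SAMtools 0.1.19 to drop those with a mapping quality below 10, and counted per RefSeq gene with featureCounts 1.6.2. The deposited values are raw counts, whole numbers for 24495 genes in 12 libraries. The library totals of 11171111 to 27155553 make 1 count worth 0.0332 to 0.105 normalized CPM; the SD of 2 libraries is itself imprecise. The strand setting was not given in the sources used here.

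edgeR 4.0.16 (R 4.3.3) was run on these counts, with filterByExpr with a minimum count of 10, TMM normalization, and a quasi-likelihood fit of all 12 libraries with 6 group means and 6 residual degrees of freedom. There were 13 comparisons: days within a line, lines on each day and over the days, and 3 interactions of line and day. p-values were adjusted over all 15532 genes by the Benjamini-Hochberg method. The 95% intervals use the t distribution of the fit. The fold cutoff stated in the study was taken as 1.5-fold, and the other reading, a log2 fold change of 1.5, was an alternative. The fit was tested on simulated data. Alternatives were RLE, DESeq2 1.42.0, other filters and cutoffs, offsets for length, limma-voom (limma 3.58.1) with library weights, a replicate block and each library left out.

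The members, lists and tests were chosen with earlier results of these data known. All 10 members were described; of the other lists, the largest rise and fall among genes called in both lines at Day 4 were named. For likeness, 0.5 CPM was added before taking log2. Exonic lengths came from GENCODE for mm9, with 20561 genes matched by symbol and 1665 by another name. Marker lists of neural, trophoblast and fibroblast cells were summed too: over the days they ran from 129 to 245, 24.1 to 59.9 and 8.32 to 129 CPM. Neural sums fell, but of the 5 genes 3 were called higher in shSC and 4 in shCTSL at Day 4 against Day 0. In each line 1 neural gene was called lower. Trophoblast sums were 36.3 to 59.9 CPM at Day 0 and 24.1 to 40.7 at Day 4. Figures were drawn with matplotlib 3.10.9.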

Additional observations from a re-analysis of the deposited data

Results flagged for a closer look

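Hdac6 moved in opposite directions in the lines from Day 0 to Day 2: both Day 2 libraries were lower than both Day 0 libraries in shSC (147 and 141 against 157 and 161 CPM) and higher in shCTSL (151 and 154 against 142 and 145 CPM). The difference between the lines in this change was log2 0.23 (SE 0.126, edgeR adjusted p = 0.50), so it was tested and not called.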

How the results depend on the processing

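With a log2 cutoff of 1.5 the members called fell to 2, 0 and 2 in shSC (Day 2 against Day 0, Day 4 against Day 2, Day 4 against Day 0) and to 3, 0 and 3 in shCTSL. With no fold cutoff 2 members passed from Day 2 to Day 4 in each line. The share of all genes at these cutoffs is not given here, so the counts are not a result about the members. For shCTSL Day 4 against Day 2 the count was 0 when only the groups compared were fitted and 0 with limma-voom. Over all genes the calls fell too, from 3630 to 1201 and 1255. Fits with 1 library left out hold 1 library in a group. The count for shCTSL Day 4 against Day 2 was not the same in all of them. Nor was that for shCTSL against shSC at Day 2, or for the Day 2 against Day 0 difference between lines. The change in the last 2 concerned Hdac4 and Hdac5. It came in the fit without shCTSL Day 2 replicate 2, where calls over all genes rose steeply too. In shCTSL at Day 2, log2 fold change of Hdac3, −0.14, ran from −0.30 to 0.038, the latter without that library. Between the lines at Day 0, that of Hdac11, −0.11, ran from −0.28 to 0.060, turning positive without shCTSL Day 0 replicate 1 (0.060) and, at 0.03, without shSC Day 0 replicate 2. Hdac2 in shSC at Day 2 became called with length offsets (−0.63) and without shSC Day 0 replicate 1 (−0.59) or shSC Day 2 replicate 2 (−0.61). Causes were not tested. No other count of members left the range within 1.5 times its value. The deviations of same-numbered replicates from their group means had r from −0.47 to 0.26 between groups. These r cannot settle whether equal numbers mark a shared culture or batch. The replicate block left the counts of members at 6, 1 and 7 in shSC and 7, 1 and 7 in shCTSL. Depth limits Hdac9 at Day 0 (11 to 22 counts) most. Omitting both shCTSL Day 2 libraries, and the unique-window length of Hdac1, were chosen after seeing the data.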
